A study of Mus musculus with 16 samples.

Results

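The circadian clock genes considered here are 10 rows of a hypothalamus RNA-seq count table of 47069 genes: the period genes Per1, Per2 and Per3, the cryptochromes Cry1 and Cry2, Arntl (also called Bmal1), Nr1d1 and the output factors Dbp, Tef and Hlf. They were chosen by gene name, with earlier results of these data known. Of the 10, 9 passed the filter on low counts that left 16646 genes for testing, and Per3 was listed at 0 in every library. The mice were C57BL/6N, an inbred laboratory strain, and the 16 libraries came from 8 diets with 2 libraries each. The diets supplied 1%, 2.5%, 5% or 20% of energy as protein, at 60% or at 20% of energy as fat. Each protein level therefore had 4 libraries and each fat level 8. All groups share the strain and the tissue, and no group received any other agent per the labels. The study's question was how the protein content of the diet changes hypothalamic expression at each fat level. The hour at which tissue was taken, the age of the mice, the length of feeding and whether each library is a separate animal are not stated in the labels. The p-values therefore reflect the spread between libraries, part of which may be technical.

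The molecular clock is a feedback loop of transcription that runs with a period of about a day in almost every cell. CLOCK and the product of Arntl bind E-box sequences and switch on the Per and Cry genes, whose proteins gather and then block that activation. Nr1d1 encodes REV-ERBα, which represses Arntl through ROR response elements, and Dbp, Tef and Hlf encode related PAR bZIP factors that carry the rhythm to other genes through D-boxes. The hypothalamus holds the master pacemaker, the suprachiasmatic nucleus, and also many feeding neurons with clocks of their own. Because the level of a clock gene depends on the hour, a difference between diets in these genes and a difference in phase or in collection time cannot be told apart here.

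Total counts ran from 17731242 to 18511818 per library. All 10 defining hypothalamic markers examined were counted, with summed levels of 651 to 1050 CPM (counts scaled by library size) at 1% protein and 878 to 1020 at 20%, 1 of them rising and 3 falling between these levels. All 7 markers of the suprachiasmatic nucleus were counted too, at a summed 34.5 to 41.9 CPM at 1% and 43.5 to 45.9 at 20%, and none passed the test of 1% against 20% protein. Some libraries stood apart. The mitochondrial share of counts was 1.54%, 1.61% and 1.78% in 3 of the 4 libraries at 1% protein, namely both at 60% fat and the first at 20% fat, against 2.19% to 3.20% elsewhere. Markers of cortex and hippocampus lay log2 1.00 above their mean over all libraries in the second 20%-fat library at 1% protein and 2.14 in the second 20%-fat library at 2.5% protein, and at 0.06 or below in the others. Choroid plexus markers summed to 249 and 213 CPM in the same 2 libraries and to 134 in the first 60%-fat library at 1% protein, against 38.0 to 65.7 in the other 13, so that 2 of the 4 libraries at 1% were high. Results below are given also without these libraries where that matters.

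Per3 had no usable values. In GRCm38 it spans chromosome 4 from 151003652 to 151044665, wholly inside the span of Camta1 (150917322 to 151861876) on the same strand, and Camta1 had 6502 to 9402 counts per library. This was general: of 1154 coding genes lying wholly inside other annotated genes, 95.8% were listed at 0, against 13.5% of the other 20483 coding genes. The length given for a gene equalled its whole genomic span for 85.5% of identifiers. For Per3, absence of expression and loss in the counting cannot be told apart, and no fold was formed. Among the other members, Cry2 shares 23417 of its 30398 bases with the antisense transcript D930015M05Rik, itself listed at 0, which leaves 2491 of 6320 exonic bases unshared. Nr1d1 shares 488 of 3077 exonic bases with Thra, Dbp 539 of 2993 with Sphk2, and Tef 193 of 7867 with Gm17597, all on the opposite strand. Whether the counting used strand is not stated. Per1, Per2, Cry1, Arntl and Hlf overlap no other gene of the table.

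At 1% protein a group of clock repressors and output genes was higher than at 20% protein. Cry2, Per1, Cry1, Hlf and Tef rose 1.18-fold to 1.30-fold, and Per2, Arntl, Nr1d1 and Dbp did not pass the test. The 5 genes that rose were 5 of 9 tested, while 14.3% of all 16646 genes passed in this contrast and 8.26% passed as higher (quasi-likelihood F test of edgeR, Benjamini-Hochberg adjusted over all genes tested, at 0.05). The median log2 change was 0.24 over the 9 genes and 0.003 over all genes. Since the genes were chosen with earlier results of these data known, the comparison with all genes is a description. In all 5 genes the 4 libraries at 1% lay above the 4 at 20%, a separation seen as higher in 7.4% of all genes. Leaving out the 3 libraries of low mitochondrial share leaves 1 library at 1% protein, so calls are not given for that fit. The changes of the 5 genes were then smaller (Cry2 0.18, Cry1 0.18, Tef 0.13, Per1 0.22 and Hlf 0.21). On the 8 libraries of the 2 levels alone 3 passed, Tef (adjusted p = 0.0505) and Hlf (adjusted p = 0.0519) falling short. In that fit 4.95% of all genes passed. The count was 2 (Cry2 and Tef) without the second 60%-fat library at 1% protein, where 5.74% of all genes passed. It was 3 without the first 20%-fat library at 1% (5.52% of all genes) and without the second 20%-fat library at 20% (5.64%).

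**Figure D1:**
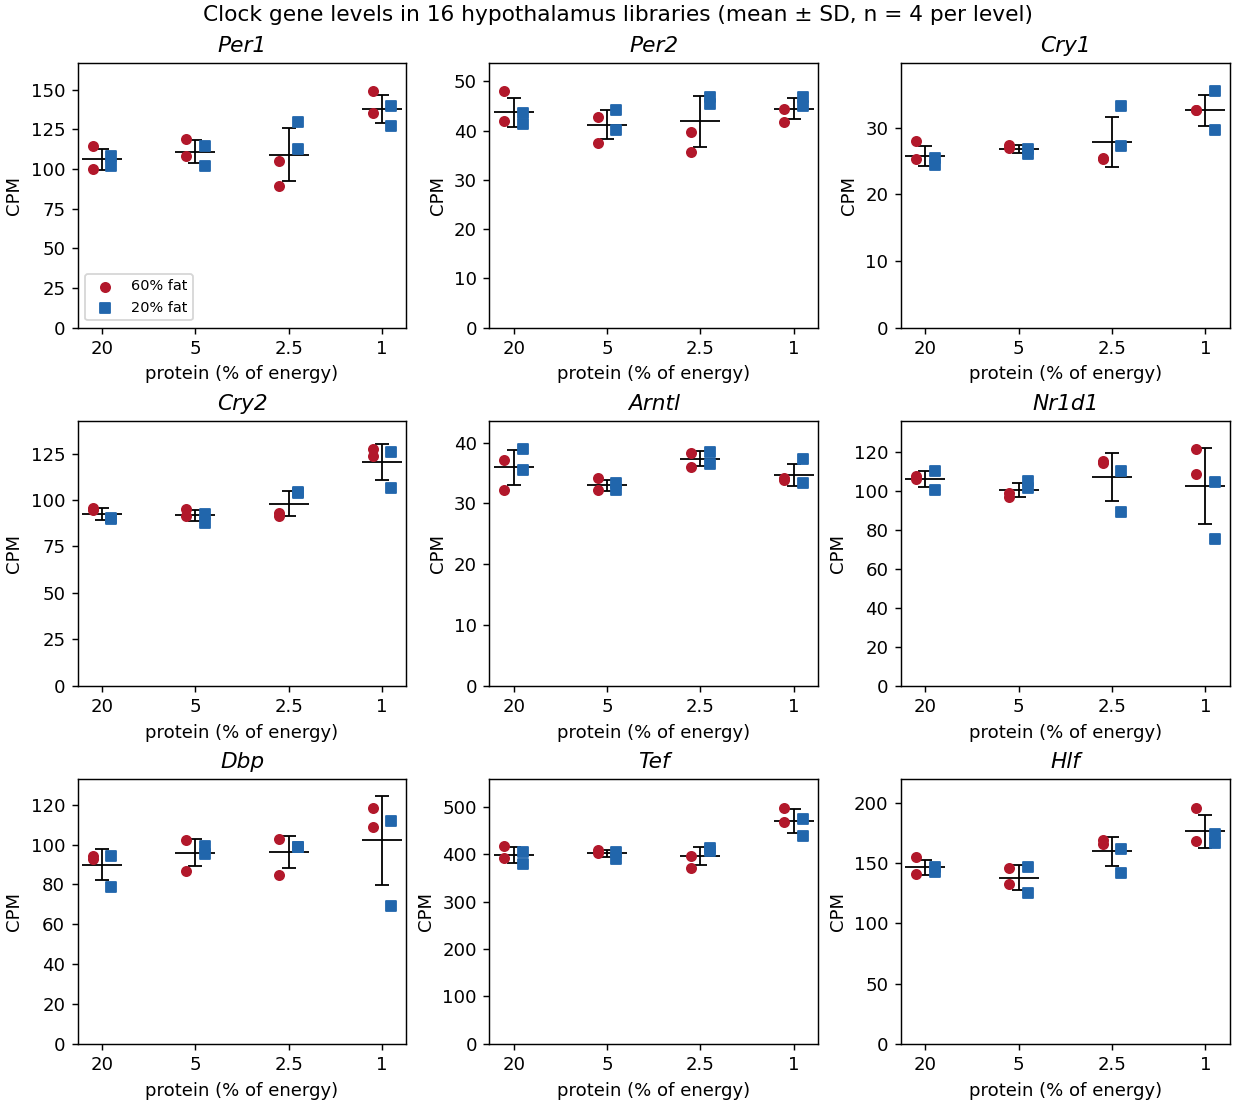
Level of each measured clock gene in CPM (vertical axis, from 0) by protein in the diet (horizontal axis, % of energy), with 1 point per library, circles for 60% fat and squares for 20% fat, and bars for the mean ± SD of 4 libraries. Per1, Cry1, Cry2, Tef and Hlf stand higher at 1% protein with no overlap with 20%, while Nr1d1 and Dbp spread widely at 1%, down to 75.0 and 69.3 CPM in a single library.

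Among the period genes, which encode the core repressors that accumulate each day, Per1 rose and Per2 did not pass. Per1 (ENSMUSG00000020893, chromosome 11, 69095217 to 69109960, plus strand) measured 136 and 149 CPM at 60% fat and 139.5 and 127.5 at 20% fat on 1% protein. On 20% protein it measured 100 and 114.5 CPM at 60% fat and 108 and 102 at 20% fat. All libraries at 1% were above all at 20%, and the means were 138 ± 8.92 and 106 ± 6.54 CPM (SD, n = 4 each). The change was log2 0.38 ± 0.09 (SE; adjusted p = 0.0125, edgeR). Per2 (ENSMUSG00000055866, chromosome 1, 91415982 to 91459324, minus strand) measured 41.7, 44.5, 44.95 and 46.8 CPM at 1% and 41.9, 48.0, 41.3 and 43.6 at 20%. These groups overlapped, with a change of log2 0.02 ± 0.08 (adjusted p = 0.863). The ratio of Per1 to Per2 counts ran from 2.72 to 3.35 at 1% protein and from 2.34 to 2.62 at 20%, without overlap. The difference in response between the 2 genes was not tested.

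Both cryptochromes, potent repressors of CLOCK and BMAL1, rose. Cry2 (ENSMUSG00000068742, chromosome 2, 92403646 to 92434043, minus strand) measured 123.5 and 127 CPM at 60% fat and 126 and 106 at 20% fat on 1% protein, against 94.8, 95.9, 89.6 and 90.3 on 20% protein. The 106 belongs to the second 20%-fat library, the one with cortex markers, and it still lay above every library at 20% protein. The change was log2 0.38 ± 0.06 (SE, n = 4 each; edgeR adjusted p = 0.00129), from a mean of 92.6 ± 3.16 to 121 ± 9.73 CPM. Cry1 (ENSMUSG00000020038, chromosome 10, 85131700 to 85185064, minus strand) measured 32.7, 32.6, 35.4 and 29.7 CPM at 1% and 25.3, 28.0, 25.4 and 24.3 at 20%. Again the lowest of the 4 at 1% was the second 20%-fat library. The means were 32.6 ± 2.35 and 25.7 ± 1.55 CPM, a change of log2 0.34 ± 0.08 (adjusted p = 0.015).

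The PAR bZIP genes moved in part. Tef (ENSMUSG00000022389, chromosome 15, 81802421 to 81826863, plus strand), which encodes thyrotroph embryonic factor, measured 468, 499, 475 and 439 CPM at 1% and 391, 417, 405 and 380 at 20%. Its groups did not overlap, and it had the smallest change of the 5 with a log2 of 0.24 ± 0.05 (edgeR adjusted p = 0.00697). Hlf (ENSMUSG00000003949, chromosome 11, 90336536 to 90390895, minus strand), the hepatic leukaemia factor gene, measured 168, 196, 174.5 and 167 CPM at 1% and 156, 141, 143 and 147 at 20%. It changed by log2 0.27 ± 0.06 (adjusted p = 0.0149). Dbp (ENSMUSG00000059824, chromosome 7, 45705088 to 45710203, plus strand), the D-box binding protein and among the most rhythmic transcripts known in many tissues, measured 119, 109, 112 and 69.3 CPM at 1% and 94.1, 92.8, 94.4 and 78.6 at 20%. Here 3 libraries at 1% were above all at 20%, and the second 20%-fat library was the lowest of the 16. Its change was log2 0.18 ± 0.12 (adjusted p = 0.316) over all libraries and 0.32 ± 0.08 (adjusted p = 0.0042) without the 2 cortex-marker libraries. Without the 3 libraries of low mitochondrial share, which leaves 1 library at 1% protein, it was -0.39.

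The activator Arntl and its repressor Nr1d1 gave no call. Arntl (ENSMUSG00000055116, chromosome 7, 113207465 to 113314126, plus strand) measured 33.9, 34.3, 33.3 and 37.4 CPM at 1% and 32.2, 37.2, 35.5 and 38.9 at 20%, overlapping groups with a change of log2 -0.05 ± 0.06 (edgeR adjusted p = 0.602). Nr1d1 (ENSMUSG00000020889, chromosome 11, 98767932 to 98775333, minus strand) measured 121, 108, 104 and 75.0 CPM at 1% and 106, 107, 110 and 100.5 at 20%. Its SD was 19.5 CPM at 1% and 4.02 at 20%, and the 75.0 belongs to the same 20%-fat library in which Dbp was lowest. Its change was log2 -0.06 ± 0.10 (adjusted p = 0.717).

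Promoter windows around annotated start sites were taken from RefSeq (GRCm38.p6) for 9 of the 10 members, all but Per2. Motifs were searched on both strands in windows of 300 bases, 250 before the start and 50 from it. The E-box CACGTG, to which CLOCK and BMAL1 bind, lay in the windows of Per1, Cry1 and Tef, and 7.15% of 32851 promoter windows hold it. In Per1 it sits 166 to 161 bases before the start, in Cry1 60 to 55, and in Tef 127 to 122. Hlf has the cAMP response element TGACGTCA 9 to 2 bases before its start, which 1.79% of windows hold. No searched motif was found in the window of Cry2. The 250 bases before the start are shown for the 5 genes that rose, so that the motif can be seen in its place, 5′ to 3′ along the gene's strand, with the motif in capitals. They are chr11:69098699-69098948 (plus strand) for Per1, chr10:85185055-85185304 (minus) for Cry1, chr15:81802423-81802672 (plus) for Tef, chr11:90390918-90391167 (minus) for Hlf and chr2:92434070-92434319 (minus) for Cry2.
Per1: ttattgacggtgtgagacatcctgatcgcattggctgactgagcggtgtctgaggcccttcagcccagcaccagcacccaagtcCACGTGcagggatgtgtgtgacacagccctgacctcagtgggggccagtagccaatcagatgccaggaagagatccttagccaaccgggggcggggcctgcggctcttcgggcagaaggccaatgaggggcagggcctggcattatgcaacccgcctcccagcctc
Cry1: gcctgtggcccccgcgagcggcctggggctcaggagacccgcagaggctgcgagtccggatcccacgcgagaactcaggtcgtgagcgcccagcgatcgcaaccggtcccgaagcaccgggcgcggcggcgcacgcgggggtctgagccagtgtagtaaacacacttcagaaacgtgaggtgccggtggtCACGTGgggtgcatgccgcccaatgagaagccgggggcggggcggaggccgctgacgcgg
Tef: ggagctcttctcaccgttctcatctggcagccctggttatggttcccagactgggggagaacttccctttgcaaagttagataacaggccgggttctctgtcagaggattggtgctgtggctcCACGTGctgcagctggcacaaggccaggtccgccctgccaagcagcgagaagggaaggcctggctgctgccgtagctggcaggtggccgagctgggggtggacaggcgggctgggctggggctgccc
Hlf: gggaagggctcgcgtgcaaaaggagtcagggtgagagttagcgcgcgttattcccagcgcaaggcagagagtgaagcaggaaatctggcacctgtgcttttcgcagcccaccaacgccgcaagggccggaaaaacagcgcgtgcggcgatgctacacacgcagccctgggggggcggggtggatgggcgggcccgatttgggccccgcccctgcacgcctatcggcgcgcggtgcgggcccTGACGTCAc
Cry2: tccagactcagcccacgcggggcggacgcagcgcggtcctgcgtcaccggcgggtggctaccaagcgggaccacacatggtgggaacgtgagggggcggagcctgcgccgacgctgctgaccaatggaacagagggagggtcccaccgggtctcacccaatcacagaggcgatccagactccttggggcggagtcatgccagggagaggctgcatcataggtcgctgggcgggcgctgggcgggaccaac

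The other motifs searched were the D-box (TTATGTAA or TTACGTAA, in 1.06% of windows), the core of the ROR response element (TAGGTCA or TGGGTCA, in 6.45%) and a glucocorticoid response element (in 0.475%). The unmeasured Per3 had 2 D-boxes, 205 to 198 and 158 to 151 bases before its start, and of 2 Arntl windows that of the later start held a ROR element core. A second Tef window, for a start farther downstream, held an E-box 138 to 133 bases before it. Dbp, Nr1d1 and the second window of Per1 held none of the 5 motifs. Several of these motifs are short, the search covers 300 bases only, and a match describes letters and not binding.

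The intermediate diets asked at which step the rise lay. Against 20% protein, none of the 9 genes passed at 2.5% or at 5% in edgeR's quasi-likelihood test, and none had an unadjusted p under 0.05, while 0.00601% and 0.03% of all genes passed. An unadjusted p under 0.05 was seen in 4.81% and 3.01% of all genes. In the order 20%, 5%, 2.5% and 1% protein, mean Cry2 was 92.6 ± 3.16, 91.7 ± 3.02, 98.1 ± 6.93 and 121 ± 9.73 CPM (SD, n = 4 each). Mean Tef was 399 ± 16.1, 402 ± 7.8, 397 ± 18.8 and 470 ± 24.7 CPM. Per1 averaged 106, 111, 109 and 138 CPM, and Cry1 25.7, 26.8, 27.8 and 32.6. Mean Hlf was 147, 138, 160 and 176 CPM. In Cry2 and Tef every library at 1% lay above every library at 2.5%. The share of all genes that separate in this way is not given here, so this is a description only. The ranges at 2.5% and 1% overlapped in Per1 (89.2 to 130 and 128 to 149 CPM), in Cry1 (25.3 to 33.3 and 29.7 to 35.4) and in Hlf (142 to 169 and 167 to 196).

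Tested directly, 3 of 9 genes rose from 5% to 1% protein, namely Cry2 (log2 0.39 ± 0.06, adjusted p = 0.00286), Hlf (0.35 ± 0.06, adjusted p = 0.00645) and Tef (0.23 ± 0.05, adjusted p = 0.0179), by edgeR, where 4.87% of all genes passed and 2.46% passed as higher. Per1 (0.31, adjusted p = 0.0503) and Cry1 (0.28, adjusted p = 0.0571) lay just short of the threshold. All 9 values were positive. From 2.5% to 1%, 2 of 9 rose, Cry2 (0.30 ± 0.06, adjusted p = 0.0207) and Tef (0.24 ± 0.05, adjusted p = 0.0198), where 2.32% of all genes passed and 1.39% passed as higher (edgeR), and Per1 had 0.34 (adjusted p = 0.0539). The 1% and 2.5% diets carry codes with the same beginning and the 5% and 20% diets another, so 2.5% against 1% is within a code series, while 5% against 1% and 20% against 1% cross from one to the other, where code series and protein level cannot be told apart. Within the other series, 5% against 20%, the log2 changes ran from -0.12 (Arntl) to 0.10 (Dbp). These contrasts share the libraries at 1% or at 20%. The number of members that passed from 2.5% to 1% was 0 when any one of 5 libraries was left out, where 0.558% to 1.11% of all genes passed. These were each 60%-fat library at 1% or 2.5% protein, and the first 20%-fat library at 1%. The number was 5 without the second 20%-fat library at 1%. Without that last library 6 passed from 5% to 1%, but calls rose over all genes too, to 25.1% for 2.5% to 1% and 22.3% for 5% to 1%. The call of Tef from 5% to 1% was lost in 5 of the 16 fits without 1 library (adjusted p from 0.053 to 0.0861): without the second 60%-fat or the first 20%-fat library at 1%, and without either 60%-fat or the second 20%-fat library at 5%.

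**Figure D2:**
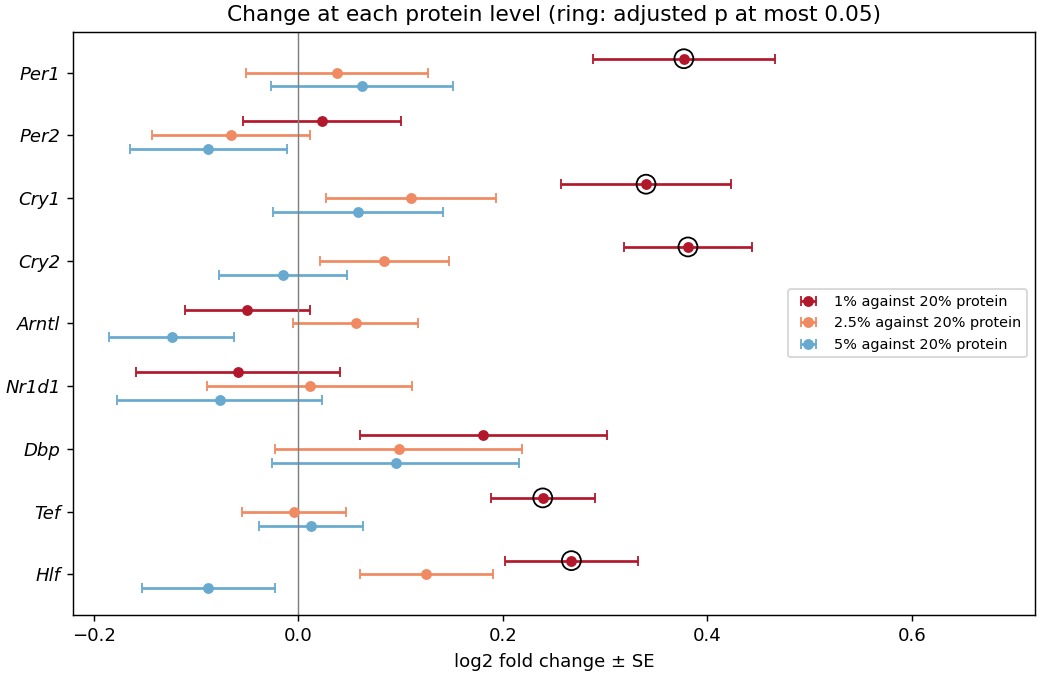
Log2 fold change of each clock gene (horizontal axis, ± SE) at 1%, 2.5% and 5% protein, each against 20% protein and over both fat levels, with a ring around changes that passed the adjusted threshold. The 5 ringed points are all at 1% protein, between 0.24 and 0.38, and share the 20% libraries with the others.

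The linear slope on protein, scaled to the change from 20% to 1% protein, called none of the 9 genes in edgeR's quasi-likelihood test, where 0.018% of all genes passed. DESeq2 and the likelihood ratio test called 0 as well. Cry2 (0.23), Cry1 (0.23) and Per1 (0.23) had unadjusted p-values of 0.0238, 0.0192 and 0.0443 in edgeR's test (adjusted p = 0.301, 0.293 and 0.334). Of all genes, 14.6% had an unadjusted p under 0.05 for this slope. With protein on a log2 scale, which puts the low doses further apart, the count was 4: Cry2, Cry1, Per1 and Hlf, with adjusted p from 0.0134 to 0.0449, and 7.88% of all genes passed. Within each fat level, the correlation of log2 level with protein was taken over 8 libraries for each of the 9 genes. At 20% fat Cry1 had r = -0.70 (exact permutation p = 0.0421, two-sided) and rho = -0.93 (exact p = 0.00317). Its r was -0.74 without the 2 libraries farthest from the median protein level. At each fat level these 2 are both libraries at 20% protein. The r without them therefore covers the lower protein levels only, and is not a check on outlying values. Cry2 had r = -0.64 (exact p = 0.106) and rho = -0.88 (exact p = 0.0103), with r = -0.89 without those 2. At that fat level rho was also -0.88 for Tef (exact p = 0.0103), -0.83 for Per1 (exact p = 0.0198) and -0.78 for Per2 (exact p = 0.0349), with r of -0.59, -0.66 and -0.54 (exact p = 0.0889, 0.0917 and 0.129) and of -0.83, -0.82 and -0.72 without the 2. Per2 had the other sign at 60% fat (r = 0.49, exact p = 0.219; rho = 0.24, exact p = 0.586; r = -0.29 without the 2). Of all genes, 6.79% had an exact p for r under 0.05 at 20% fat and 7.46% at 60% fat. By r, Cry1 alone of the 9 was under 0.05 at 20% fat. The share of all genes for rho was not taken, so the rho values of the members have no background here. At 60% fat no member had an exact p under 0.05 for r, and Hlf had the lowest for rho (-0.78, exact p = 0.0349), with r = -0.49 (exact p = 0.23) and -0.90 without the 2. None of these passed Benjamini-Hochberg adjustment over all 16646 genes (adjusted p for Cry1 at 20% fat 0.712 for r and 0.194 for rho), and 2520 arrangements allow no p below 0.000397.

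The amount of fat made no called difference. Of the 9 genes 0 passed for 60% against 20% fat in edgeR's quasi-likelihood test and 0 had an unadjusted p under 0.05, DESeq2 called 0, and 0.00601% of all genes passed. An unadjusted p under 0.05 was seen in 7.79% of all genes. Nr1d1 had the largest value, log2 0.13 ± 0.07 (adjusted p = 0.638), from a median of 103 CPM at 20% fat (range 75.0 to 110) and 108 at 60% fat (96.6 to 121). Per2 had -0.09 ± 0.05 (adjusted p = 0.638), from a median of 44.6 CPM at 20% fat (40.2 to 46.8) and 41.8 at 60% fat (35.6 to 48.0). The other 7 lay between -0.04 and 0.08.

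The rise at 1% protein was seen at both fat levels, with 2 libraries in each arm and fewer calls. At 60% fat Per1 (log2 0.41 ± 0.11, adjusted p = 0.0484) and Cry2 (0.39 ± 0.08, adjusted p = 0.0223) passed, 2 of 9 where 4.25% of all genes did and 1.97% did as higher (edgeR). At 20% fat Cry2 passed (0.37 ± 0.08, adjusted p = 0.028), 1 of 9 where 1.78% did and 0.601% did as higher (edgeR). Cry1 had 0.29 and 0.39 at 60% and 20% fat, Tef 0.26 and 0.22, and Hlf 0.30 and 0.24. The difference between fat levels was tested directly, and 0 of 9 genes passed it, 0 with an unadjusted p under 0.05, with 0% of all genes called. An unadjusted p under 0.05 was seen in 7.84% of all genes. For Cry2 that difference was 0.03 ± 0.11 and for Per1 0.06 ± 0.15. Nr1d1 differed most, at 0.10 and -0.23, a difference of 0.33 ± 0.18 (adjusted p = 0.633). These calls rest on single libraries, and the share of all genes called moved with the counts. Over the 16 fits without 1 library, Cry2 had 0.359 to 0.402 at 60% fat and 0.232 to 0.48 at 20% fat. Per1 had 0.306 to 0.495 at 60% fat. At 60% fat the count was 0 without any one of the 4 libraries compared, and 1 (Cry2) without any one library of 2.5% or 5% protein at 60% fat or of 2.5% or 20% protein at 20% fat. At 20% fat the count was 0 without either 20%-protein library of that fat level, without either 60%-fat library at 2.5% or at 20% protein, and without the first 60%-fat library at 5%. Without the first 20%-fat library at 1% protein the 1 gene that passed was Nr1d1 in place of Cry2, and without the second there were 2, Cry1 and Cry2.

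Several measures of the libraries moved with the same contrast. Of 7 thalamus markers, 5 rose from 20% to 1% protein and none was at 0, with summed levels of 330 to 468 CPM at 20% and 564 to 874 at 1%. All 5 endothelial markers fell, from a sum of 138 to 168 CPM down to 112 to 122. Summed markers of the suprachiasmatic nucleus were lower too, at 34.5 to 41.9 CPM at 1% against 43.5 to 45.9 at 20%, without overlap. None of these 7 markers passed by itself, and their median log2 change was -0.18. Of 9 cortex and hippocampus markers none passed. Fewer cells of a type and less RNA per cell cannot be told apart in bulk tissue, and the part of these shifts in the clock gene result was not tested. With the trend of each library on gene length removed, the same 5 genes passed, and the changes of Per1, Cry1, Cry2, Tef and Hlf were 0.39, 0.41, 0.43, 0.27 and 0.34. Without the 2 cortex-marker libraries 6 passed, all higher, in a fit where 34.8% of all genes passed against 14.3% with all libraries. Without the 3 libraries of low mitochondrial share, the 1% level is the second 20%-fat library alone, whose spread is taken from the other groups. Then Hlf had 0.21, Per1 0.22, Cry2 0.18, Cry1 0.18 and Tef 0.13, all above 0. In that fit Nr1d1 had -0.48 and Dbp -0.39 on the log2 scale. With 1 library at 1% protein, calls are not given for that fit.

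**Figure D3:**
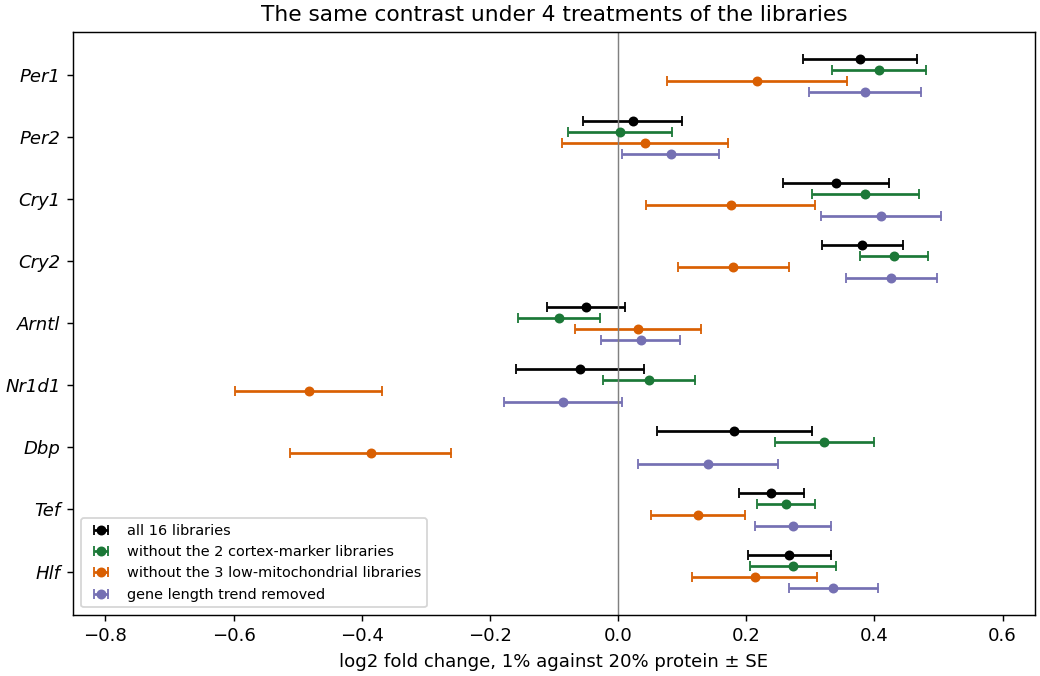
Log2 fold change of each clock gene from 20% to 1% protein (horizontal axis, ± SE) with all 16 libraries, without the 2 libraries with cortex markers, without the 3 libraries of low mitochondrial share and with the gene length trend removed. Per1, Cry1, Cry2, Tef and Hlf stay above 0 in all 4, while Dbp moves from 0.32 to -0.39 and Nr1d1 from 0.05 to -0.48 depending on which 1% libraries are used.

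The members fell into sets by how they varied over the 16 libraries, given here as a description because libraries of a diet share that diet. Tef followed Per1 (Pearson r = 0.92, Spearman rho = 0.91) and Cry2 (r = 0.93, rho = 0.83), and Cry1 followed Cry2 (r = 0.90, rho = 0.82). Of 16645 other tested genes, Tef was the 6th closest to Per1 and the 12th closest to Cry2, and Cry2 the 18th closest to Cry1. In the other direction Per1 was the 25th and Cry2 the 14th closest to Tef, and Cry1 the 52nd closest to Cry2. Without the 2 libraries farthest from the median of Per1, Cry2 and Cry1 in turn, the r of these pairs was 0.87, 0.84 and 0.93. By the median of the partner it was 0.86, 0.84 and 0.84. After the diet means were taken off, which leaves 1 difference for each of 8 diets, the r of these pairs was 0.71, 0.61 and 0.64. The other pairs of these 4 genes held less or not at all within diets, with 0.45 for Cry1 and Tef, 0.19 for Per1 and Cry2 and -0.03 for Per1 and Cry1.

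The genes that did not pass showed other pairings. Dbp followed Nr1d1 (r = 0.64, rho = 0.38, and 0.78 after diet means were taken off), which fell to 0.26 without the 2 libraries farthest from the median of Dbp, so it rests on those. Dbp ran against Arntl (r = -0.53, rho = -0.50, and -0.73 after diet means were taken off). Removing the gene length trend took the r over all 16 libraries from -0.53 to -0.04, and Arntl spans 106662 bases and Dbp 5116. The value within diets was not taken with that trend removed. Per2 followed Arntl within diets (0.77) more than across all libraries (r = 0.32, rho = 0.38).

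**Figure D4:**
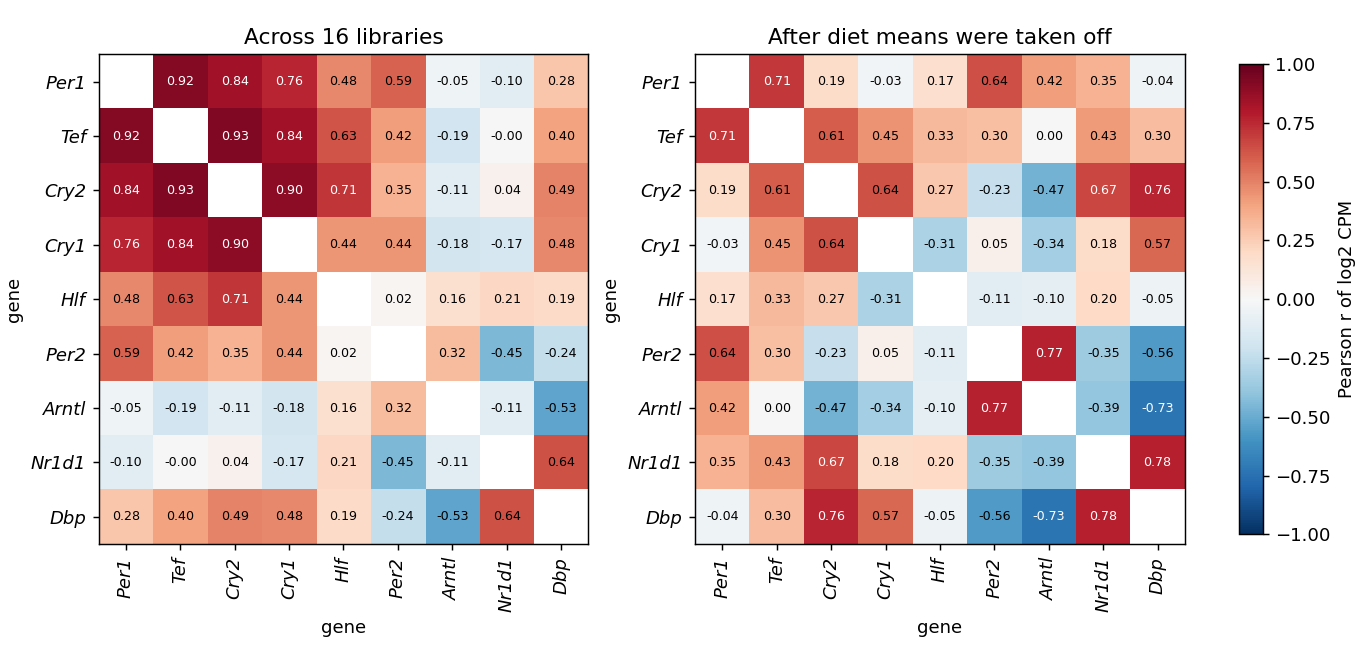
Pearson r of log2 CPM for each pair of the 9 measured clock genes, both axes listing genes, over 16 libraries on the left and after subtraction of each diet's mean on the right. Per1, Tef, Cry2 and Cry1 form a block of values from 0.76 to 0.93 on the left that does not hold for Per1 with Cry1 (-0.03) or Cry2 (0.19) on the right, where Dbp goes with Nr1d1 (0.78) and Cry2 (0.76) and against Arntl (-0.73).

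The genes outside the clock lists that lay closest to each member over the 16 libraries, with Pearson r, were as follows, and a search over all genes always returns high values. Per1 was closest to Tle3 (0.95), a transcriptional corepressor, Idh2 (0.93) and Wdr81 (0.92). Cry2 was closest to Znhit3 (0.96), Camk1g (0.94) and Deaf1 (0.94), and Cry1 to Ikbkap (0.94), Usp36 (0.94) and Tomm20 (0.93). Tef was closest to Por (0.97), which encodes cytochrome P450 oxidoreductase, Agfg2 (0.96) and Sun2 (0.96). Hlf was closest to Cpne9 (0.92), Zmat4 (0.92) and Galnt9 (0.91), and Dbp to Cspg5 (0.92), Fam173a (0.91) and Slc52a2 (0.90). Values were lower for Nr1d1 with Galnt6 (0.86), Crabp1 (0.86) and Myo1d (0.84), for Per2 with Pcsk7 (0.86), Etv3 (0.83) and Ebna1bp2 (0.76), and for Arntl with Cep76 (0.82), Mkx (0.81) and Zcchc2 (0.79).

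Of 16 further clock genes, 14 were tested, and Ciart and Usp2 were listed at 0. Ciart lies wholly inside the antisense gene C920021L13Rik. None of the 14 passed for 1% against 20% protein, where 14.3% of all genes did, and 5 had an unadjusted p under 0.05 in edgeR's quasi-likelihood test, as did 31.7% of all genes. Their median log2 change was 0.06. Npas2, a partner of BMAL1 that can stand in for CLOCK, measured 25.8, 34.0, 24.3 and 22.3 CPM at 1% and 20.1, 20.9, 19.8 and 20.4 at 20%, without overlap (log2 0.39 ± 0.14, adjusted p = 0.0754). Clock itself measured 42.1 and 46.0 CPM in the libraries of 60% fat with 1% protein, 53.0 and 81.2 in those of 20% fat, and 63.5 to 74.3 at 20% protein (-0.31 ± 0.14, adjusted p = 0.137). At 60% fat alone Clock fell by 0.61 on the log2 scale from 20% to 1% protein (adjusted p = 0.0495), the sole member of this wider list to pass any of the contrasts. Its difference between fat levels was -0.57 ± 0.23 (adjusted p = 0.623). The spread of Clock at 1% protein went with the mitochondrial share, since the 3 libraries with the low share had the 3 lowest values of the 16, and their part was not tested. Csnk1d, which encodes a kinase of PER proteins, had 0.12 (adjusted p = 0.116).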

How the data were processed

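Hypothalamus RNA of 16 libraries from 8 diets was sequenced. The deposited table holds raw read counts per gene, left unnormalised by the authors. Per the submitters' processing notes the build was GRCm38 and the tools were HISAT2 2.1.0, featureCounts, Subread 5.0, SAMtools 1.2, edgeR and FastQC. The deposited gene length, in bases, was used for spans and for the length trend only. Libraries were grouped by the treatment label.

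Genes were kept with filterByExpr (minimum count 10) and scaled with TMM. Tests were edgeR 4.0.16 quasi-likelihood F tests in R 4.3.3 with Benjamini-Hochberg adjustment over all genes tested, on all 16 libraries. The models were protein, fat and their interaction (dropped where not significant, as for every tested member), protein as 4 levels with fat, and 8 diets. SE is the log2 change over the root of F. CPM are TMM-scaled, with a prior count of 2 on the log2 scale. Every member is named, with other clock genes that passed, genes overlapping a member and the 3 closest genes to each member. Csnk1d and Npas2 were chosen after their values were seen. Members and lists were chosen with earlier results of these data known. Positions and overlaps come from GENCODE M21 (GRCm38). The alternatives included DESeq2 1.42.0, other filters and leaving out libraries. The steps were tested on simulated counts.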

Additional observations from a re-analysis of the deposited data

Results flagged for a closer look

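Within each protein level and each fat level, the lowest and highest log2 CPM of each measured clock gene was checked for a gap to its nearest neighbour that is large for the range of the group. Of 54 such groups 3 had one, and chance gives about 1 in 20. Dbp in the second 20%-fat library at 1% protein had a log2 CPM of 6.12 (1278 counts), with the other 3 libraries at 6.77 to 6.89. Cry2 in the same library had 6.73, with the others at 6.95 to 6.99. Dbp in the second 20%-fat library at 20% protein had 6.3, with the others at 6.54 to 6.56. The first library is one of the 2 with cortex markers, and the only one at 1% protein without a low mitochondrial share.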

How the results depend on the processing

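The count of 5 clock genes higher at 1% than at 20% protein held at 5 with median-ratio scaling, both other filters, DESeq2, the likelihood ratio test, the replicate block and the gene length trend removed. In these fits 8.25% to 16.7% of all genes passed. The count was 3 on the 8 libraries of the 2 levels alone, where 4.95% of all genes passed. Leaving out the 3 libraries of low mitochondrial share leaves 1 library at 1%. The changes of the 5 genes were then 0.13 (Tef) to 0.22 (Per1), and Nr1d1 had -0.48. When single libraries were left out the count was 2 to 6, where 5.52% to 33.0% of all genes passed. It was 2 without the second 60%-fat library at 1% protein (5.74% of all genes). It was 3 without the first 20%-fat library at 1% (5.52%) or the second 20%-fat library at 20% (5.64%). The slope's 0 became 4 with protein on a log2 scale, where 7.88% of all genes passed. Over the 27 alternatives the slope ran from 0.019 to 0.358 for Cry2, 0.081 to 0.333 for Per1 and 0.102 to 0.321 for Cry1. It ran from 0.023 to 0.206 for Tef and -0.092 to 0.279 for Hlf. Single libraries left out gave no Cry2 slope below 0.186. Without the 2 cortex-marker libraries the counts became 6 for 1% against 5%, 5 for 1% against 2.5%, and 5 and 2 for 1% against 20% at 60% and at 20% fat, while the share of all genes called rose to 23.8%, 23.8%, 16.9% and 5.47%. The count at 60% fat was 1 with median-ratio scaling and 4 with no filter, where 3.44% and 8.34% of all genes passed. Leaving out single libraries gave 2 to 6 for 1% against 5%, where 1.87% to 22.3% of all genes passed. It gave 0 to 5 for 1% against 2.5%, where 0.558% to 25.1% passed. It gave 0 for the slope, for 2.5% and 5% against 20%, and for fat. Within each fat level the calls also changed, as given above, and leaving out a compared library there leaves 1 in its diet. Deviations of same-numbered libraries correlated at -0.17 to 0.34 (median 0.02), over 0.1 in 7 of 28 pairs of diets. Whether the replicate numbers pair the libraries was not tested. The replicate block took the count for 1% against 5% from 3 to 5, and the share of all genes called from 4.87% to 6.31%. With the block that share also rose from 14.3% to 16.7% for 1% against 20%, and from 4.25% to 11.2% for that contrast at 60% fat.

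Signs turned for these changes, none of which had passed. Along the slope, Per2 had 0.008 with the length trend removed, 0.013 on a log2 scale and -0.076 to 0.045 without single libraries, Arntl 0.029 with the length trend removed and -0.072 to 0.014 without single libraries, Nr1d1 -0.069 to 0.011 without single libraries, and Hlf -0.092 with a term for the diet code. For 1% against 20%, Per2 had -0.031 to 0.084 and Nr1d1 -0.142 to 0.051 without single libraries, Arntl 0.035 with the length trend removed and 0.031 without the low-mitochondrial libraries, Nr1d1 0.048 without the cortex-marker libraries and Dbp -0.386 without the low-mitochondrial libraries. For fat, Per1 had -0.056 to 0.014, Cry1 -0.057 to 0.018, Cry2 -0.014 to 0.036 and Tef -0.004 to 0.031 without single libraries. With the length trend removed Cry1 had 0.002 and Arntl 0.001. Cry2 had -0.001 without the cortex-marker libraries, and without the low-mitochondrial ones Cry2 had -0.014, Dbp -0.001 and Tef -0.008. The causes were not tested. With 4 libraries a level, smaller changes than those called may be missed.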
